A study of Mus musculus with 6 samples.

Results

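Contacts between small nucleolar RNAs (snoRNAs) and ribosomal RNA were taken from 4 MARIO libraries of mouse cells. MARIO crosslinks RNAs to the proteins that bind them, joins a biotin-tagged linker to the RNA ends held on beads, ligates neighbouring ends and sequences the chimeric molecule, so that each read pair names the RNA at either end of the linker, called RNA1 and RNA2. A read pair was chosen where the deposited annotation gave the type rRNA to one fragment and snoRNA to the other. The rule found 21754 of 8319389 lines, or 19280 of 5581375 distinct pairs of coordinates. ES-1 held 10341 of these, ES-2 1780, ES indirect 6749 and MEF 410. The libraries of whole brain were not used here.

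The snoRNAs were divided by symbol prefix, ignoring case, into SNORA, SNORD, SCARNA and other symbols, and symbols are printed here in capitals. ES-1 and ES-2 came from independent assays on E14 embryonic stem (ES) cells, a cell line of strain 129/Ola, and were crosslinked with ultraviolet light of 254 nm and cut by RNase I, to about 1000 nt by the labels, with longer fragments also allowed in ES-1 by the methods of the study. Depletion differed: ES-1 lost ribosomal cDNA to a duplex-specific nuclease, and ES-2 lost ribosomal RNA through the GeneRead kit. ES indirect came from the same cell line, was fixed by formaldehyde and EGS, reagents that link proteins to one another too, was sonicated to about 1000 nt and was depleted with the nuclease. MEF came from embryonic fibroblasts of strain C57Bl/6, was crosslinked at 254 nm, was cut to about 300 nt and was depleted with the GeneRead kit. The labels name no genetic change or drug treatment for any of them. MEF therefore differed from ES-1 in cell type, strain, fragment size and depletion, and these cannot be told apart.

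Most snoRNAs guide the chemical modification of ribosomal RNA in the nucleolus. SNORD genes make C/D box snoRNAs, in which a short stretch just before a D or D' box pairs with ribosomal RNA and directs methylation of a ribose there. SNORA genes make H/ACA box snoRNAs, which hold the target in an internal loop and direct the change of uridine to pseudouridine. SCARNA genes make RNAs of the Cajal body, most of which act on spliceosomal RNAs. A few snoRNAs act in cutting the ribosomal precursor: U3, SNORD14 (U14) and SNORA73 (U17) in the making of 18S, and SNORD118 (U8) in the making of 28S and 5.8S. SNORD13 (U13) is taken here only as acting on 18S.

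The type rRNA did not mean the same molecules in every library. In ES-1, 6740 of the 10341 distinct pairs (65.2%) held 5S, 1177 (11.4%) held 5.8S and 2424 (23.4%) held other loci, and in ES-2 the counts were 858, 296 and 626 of 1780. In MEF, 305 of 410 (74.4%) held 5S. In ES indirect, 3961 of 6749 (58.7%) held 18S, 2230 (33.0%) held the 5' external transcribed spacer (5'ETS), which is cut off the precursor, 327 (4.85%) held sequence after 18S and 145 (2.15%) held 5S. The 18S and 28S ends of ES-1, ES-2 and MEF were annotated as ribosomal repeats instead. In ES indirect the 6358 contacts with 28S also lay outside type rRNA, as did part of those with 18S (3961 of 5519 were within it). Comparisons below therefore counted type rRNA, the ribosomal repeats and the ribosomal unit of chromosome 17 alike, which gave 784487 distinct snoRNA-ribosomal pairs. ES-1 gave 617829, ES-2 138894, ES indirect 14667 and MEF 13097. The unit of chromosome 17 lies on chr17:39979932-39985783 (NCBIM37, forward strand). It was divided into 3366 bases of 5'ETS, 1849 bases taken as 18S and 637 bases after them. The bounds were set where unannotated fragments in the deposited lines ended or began, not from a reference 18S. Each fragment was placed by its midpoint, so fragments counted just past the 3' bound may still lie in 18S. 28S contacts lay on repeat copies elsewhere in the genome.

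The MEF library was uneven. The read names of each library named 2 flow cells, and the second flow cell of MEF held no ribosomal contact among 1775 snoRNA pairs, which allows a share of up to 0.169% (3 pairs of 1775), while the first held 13097 among 33016 (39.7%). Over all RNAs the ribosomal share of MEF was 45.7% in the first flow cell and 4.67% in the second. The snoRNA shares of the flow cells were 70.2% and 72.5% for ES-1, for ES-2 64.0% and 64.3%, and for ES indirect 57.2% and 58.7%. The ribosomal shares of the snoRNA classes and the calls on them in MEF are given with and without the second flow cell. ES cell markers had 57.5 ends per 1000000 in MEF against 159 to 697 in the ES cell libraries, and fibroblast markers had 644 in MEF against 114 to 144, with all 8 markers of the labelled cell type present in each library. Of 6 markers of endoderm, blood and neurons, Hbb-b1 and Map2 were at 0 in all 4 libraries, and the summed list had 7.36 to 38.8 ends per 1000000.

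The C/D guides give the closest look at where a contact falls, because their target can be read from the sequence. The stretches below are those of the SNORD genes on which the results turn. Capitals mark the bases that pair perfectly with 18S or 28S, the small letters before them are flanking bases, and the box at the end of each line closes the guide. Each was read from the snoRNA gene in NCBIM37.
SNORD14D, at chr9:40612078-40612163 on the forward strand: ttCCTTCCTTGGATGTctga
SNORD83B, at chr15:79908928-79909021 on the reverse strand: gtTGCCTTCCTTctga
SNORD42B, at chr11:77996558-77996626 on the reverse strand: ttCAAAGGAACCActga
SNORD27, at chr19:8799021-8799092 on the forward strand: atGACAAGCATATGgctga
SNORD65, at chr11:62418017-62418088 on the forward strand: atAGCTGGAATTACCGgcaga
SNORD57, at chr2:130103752-130103823 on the forward strand: acAACTGATTTAATGAGCctga
SNORD16A, at chr9:64023230-64023328 on the forward strand: tcGTAATTTGCGtctta
SNORD60, at chr17:24665421-24665498 on the forward strand: aaTTTCTGACACCTCgtatga
SNORD1B, at chr11:116535462-116535536 on the forward strand: taAGTTATCCCTGTctga
SNORD104, at chr11:106362307-106362376 on the forward strand: taGCACGCGTTAGACTgctga
SNORD34, at chr7:52381971-52382040 on the reverse strand: taTTACCTACATTGTttga
SNORD95, at chr11:48614368-48614434 on the forward strand: atCCAGAGGCTGTTtctga
SNORD18, at chr9:64022855-64022922 on the forward strand: caTTGGTCCGTGTttctga

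Their ribosomal partners were read from the same assembly, in capitals throughout. SNORD14D pairs with ACATCCAAGGAAGG, bases 465 to 478 of 18S at chr17:39983762-39983775. SNORD83B pairs with AAGGAAGGCA, bases 471 to 480 at chr17:39983768-39983777, so its complement overlaps that of SNORD14D. SNORD16A pairs with CGCAAATTAC, bases 488 to 497 at chr17:39983785-39983794, and SNORD42B with TGGTTCCTTTG, bases 112 to 122 at chr17:39983409-39983419. SNORD60 pairs with GAGGTGTCAGAAA on a 28S copy at chr6:49186478-49186490 on the reverse strand, and SNORD1B with ACAGGGATAACT at chr6:49186459-49186470, on the same copy and strand. SNORD34 pairs with ACAATGTAGGTAA at chr11:108872960-108872972 and SNORD95 with AACAGCCTCTGG at chr11:108872982-108872993, also neighbours on 1 reverse-strand copy of 28S. Known targets were taken from a list written from textbook knowledge, which was not checked against a database. It gives all of these snoRNAs except SNORD83B and SNORD1B as guides for the subunit in which the site lay. SNORD83B has no known ribosomal target in it and SNORD1B was left out.

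The first comparison asked whether a C/D snoRNA touched ribosomal RNA at the place it pairs with. A site was the longest perfect complement of at least 10 nt that ended within 2 nt before a box. A box was CTGA, or a stretch of that length with no more than 1 mismatch to it, anywhere in the gene. Some sites may therefore lie at no true D or D' box. A contact counted as near when the ribosomal fragment lay within 100 nt of the site. The share of near contacts was set against that of all other snoRNAs for the same window. These were of every class, and H/ACA snoRNAs gave 572541 of the 756723 snoRNA-ribosomal contacts in ES merged. Of 239 C/D genes searched, 101 symbols had a site, and 98 of them had the minimum of 5 placed contacts in ES-1 and ES-2 merged. Near contacts were more frequent than among other snoRNAs for 50 of the 98 (51.0% called, by Fisher's exact test on 1 side with Benjamini-Hochberg adjustment and a threshold of 0.05). The median near share was 4.56%, against 2.45% for other snoRNAs in the same windows, and 71 of 98 lay above the others. By library, ES-1 had 41 of 97 called (42.3%), ES-2 41 of 95 (43.2%), ES indirect 18 of 83 (21.7%) and MEF 3 of 23 (13.0%). Of 95 snoRNAs tested in both ES-1 and ES-2, 29 were called in both (30.5%), and 9 of these also in ES indirect: SNORD104, SNORD14D, SNORD14E, SNORD18, SNORD1B, SNORD24, SNORD55, SNORD83B and SNORD95. Read pairs are the unit of these tests, so their p-values describe the libraries, and only ES-1 beside ES-2 shows how far a call repeats between assays.

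The 18S guides with a site called in both ES libraries included several with more than 10% of their contacts near it. SNORD42B, which directs a methylation near the 5' end of 18S, had 294 of 1396 ribosomal contacts near its site in ES-1 (21.1%, other snoRNAs 4.10%) and 45 of 366 in ES-2 (12.3%, others 2.71%). SNORD27 had 150 of 1519 in ES-1 (9.87%, others 3.95%) and 123 of 407 in ES-2 (30.2%, others 2.40%). SNORD65 had 256 of 2309 in ES-1 (11.1%, others 2.86%) and 63 of 356 in ES-2 (17.7%, others 2.54%). With the snoRNA as RNA2 alone in ES merged, SNORD65 (ratio 1.42) was not called. All 3 stood above the other snoRNAs in both assays, SNORD42B by more in ES-1 and the others by more in ES-2. SNORD57 had 61 of 510 in ES-1 (12%) and 21 of 227 in ES-2 (9.25%), against 4.11% and 2.71% for others. In ES indirect the same 4 snoRNAs had 3 to 7 near contacts each and were not called, SNORD42B with 4 of 27 and SNORD65 with 7 of 66.

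SNORD14, which guides a methylation of 18S and is needed for 18S to be made, was measured in all 4 libraries through 4 near-identical copies that share the site. SNORD14D had 32 of 197 contacts near it in ES-1 (16.2%, others 3.46%), and ES-2 had 26 of 97 (26.8%, others 3.39%). In ES indirect 80 of 357 were near (22.4%, others 6.90%) and in MEF 2 of 6. SNORD14E was called in the same 3 ES cell libraries, with 17 of 244 (6.97%), 18 of 118 (15.3%) and 33 of 262 (12.6%). SNORD14C was called in ES-2 with 12 of 59 (20.3%) and in ES indirect with 87 of 346 (25.1%), but not in ES-1 with 12 of 183. SNORD14A was called in ES-2 with 5 of 26 and in ES indirect with 20 of 85 (23.5%), but not in ES-1 with 1 of 44. In ES merged all the near fragments of these copies lay on the sense strand of ribosomal RNA, and between 83.3% and 89.7% overlapped the complement itself. Overlap shares, here and below, are given without those of other snoRNAs in the same windows. Fragments of near-identical copies can be divided between them by the uniqueness filter of the authors, so the copies are not independent.

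SNORD83B, whose complement overlaps that of SNORD14, was called in all 3 ES cell libraries. The unchecked textbook list names no ribosomal target for it, which does not show that it has none. It had 166 of 2042 contacts near its site in ES-1 (8.13%, others 3.49%), 78 of 555 in ES-2 (14.1%, others 3.33%) and 42 of 149 in ES indirect (28.2%, others 7.14%). In MEF 3 of 42 were near (7.14%, others 1.82%), which was not called. Of its near fragments in ES merged, 83.2% overlapped the complement of 10 nt. SNORD16A, a guide of 18S whose site lies just past that of SNORD83B, had 30 of 396 near contacts in ES-1 (7.58%, called), 5 of 105 in ES-2 (4.76%, not called) and 18 of 34 in ES indirect (52.9%, others 7.48%, called). The windows of the SNORD14, SNORD83B and SNORD16A sites overlap, so a contact can be near more than 1 of them.

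Among the 28S guides, SNORD60 had the highest number of near contacts. In ES-1, 522 of its 2599 ribosomal contacts were near the site (20.1%, others 4.02%), in ES-2 330 of 816 (40.4%, others 3.65%), and 91.3% of the near fragments overlapped the complement. SNORD1B, whose site lies on the same copies, had 143 of 593 in ES-1 (24.1%, others 6.49%), 34 of 113 in ES-2 (30.1%, others 6.05%) and 6 of 12 in ES indirect, where others had 3.79%. SNORD38A had 253 of 1215 in ES-1 (20.8%, others 3.45%) and 12 of 206 in ES-2 (5.83%, others 2.05%). SNORD104 had 53 of 1538 in ES-1 (3.45%, others 2.19%), 153 of 1368 in ES-2 (11.2%, others 2.43%) and 7 of 60 in ES indirect (11.7%, others 1.83%).

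SNORD34, SNORD95 and SNORD18, which also guide 28S, were called in both assays with a higher share in ES-2. SNORD34 had 57 of 1228 near contacts in ES-1 (4.64%, others 0.953%) and 74 of 500 in ES-2 (14.8%, others 2.01%). SNORD95 had 15 of 429 in ES-1 (3.50%, others 1.39%), 15 of 71 in ES-2 (21.1%, others 2.87%) and 8 of 54 in ES indirect (14.8%, others 1.42%). SNORD18 had 17 of 1248 in ES-1 (1.36%, others 0.475%) and 44 of 316 in ES-2 (13.9%, others 1.02%). In all 3 the share of other snoRNAs in the same windows was higher in ES-2 as well. With the snoRNA as RNA2 alone in ES merged, the ratio of SNORD34 to other snoRNAs was 0.324, so it lay below them, and SNORD95 (1.24) was not called. SNORD18 (1.67) was not called with the snoRNA as RNA1 alone. SNORD72 and SNORD78, whose complements overlap, went the other way: SNORD72 had 377 of 1533 in ES-1 (24.6%, others 4.09%) and 5 of 135 in ES-2 (3.70%, not called), and SNORD78 had 98 of 377 in ES-1 (26.0%) and 1 of 38 in ES-2 (not called). The difference between the assays was not tested.

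**Figure D1:**
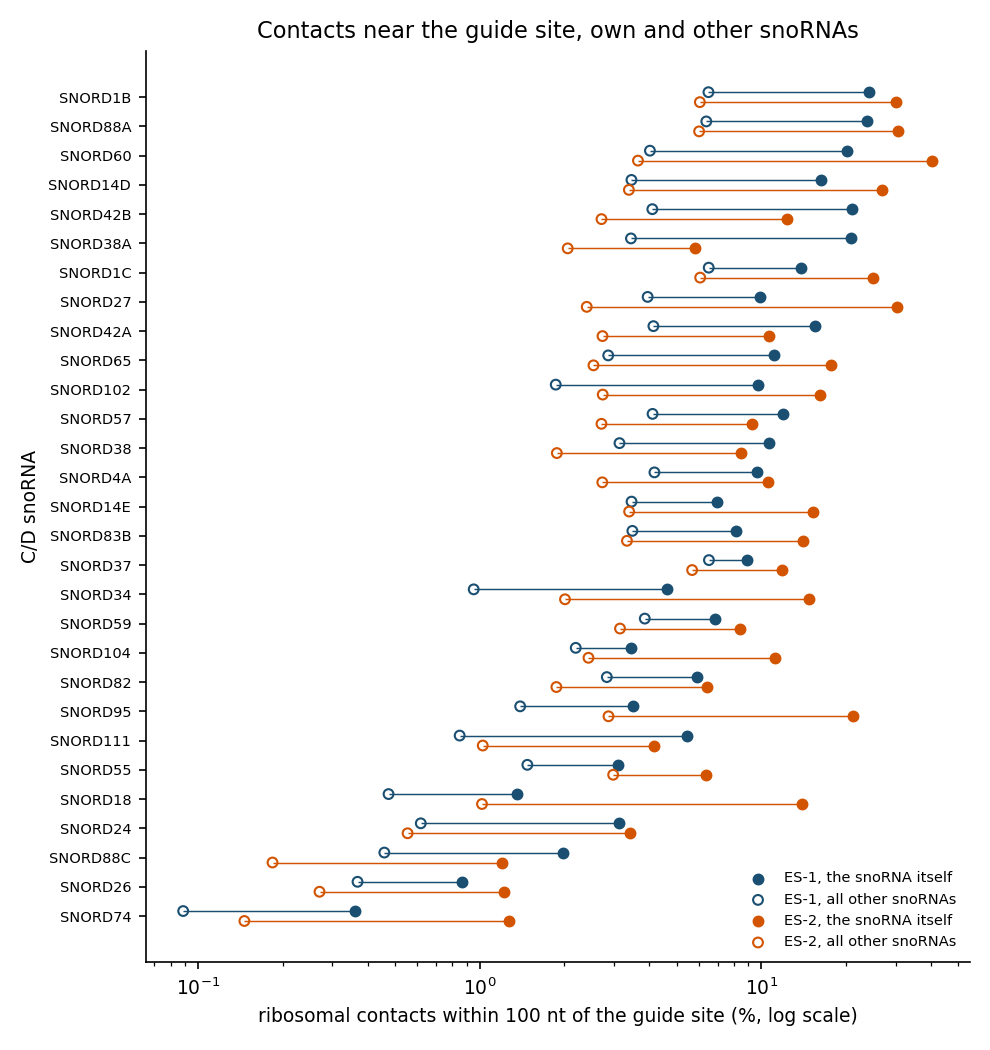
The 29 C/D snoRNAs called for their guide site in both ES-1 and ES-2 (rows), with the share of ribosomal contacts within 100 nt of the site on a log axis (percent); filled points are the snoRNA itself, open points all other snoRNAs, and lines join the values of 1 library. Every filled point lies right of its open point, from SNORD74 with 0.362% in ES-1 to SNORD60 with 40.4% in ES-2.

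Sites in both subunits and complements of different length were among those called. Of the 38 snoRNAs tested with a site in 18S, 19 were called, and of the 58 with a site in 28S, 31. Of 54 with a complement of at least 12 nt, 29 were called, and of 44 with a shorter one, 21. Where the site lay in the subunit that the textbook list names for the snoRNA, 43 of 74 were called. Where it lay in another, 2 of 6 were called, SNORD62 with 3 near contacts of 171 and SNORD71 with 2 of 206. Neither held in ES-1 alone, SNORD62 was not called in ES-2 alone either, and SNORD71 was not called for sequences at the stated position and had a ratio of 0.0 in the second flow cells. Of 18 with no subunit in the list, 5 were called. The list was written with earlier results of these data known, and no test was made between these counts.

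Several snoRNAs with many contacts had none or no excess near the site. SNORD75 had 0 of 7129 near contacts in ES merged, with 0.0279% for other snoRNAs, and SNORD35A had 0 of 996, with 0.0576%. Both windows were rarely contacted by any snoRNA. SNORD25, a known guide of 18S, had its longest complement in 28S and 0 of 3135 near contacts there. SNORD36 had 331 of 3273 near contacts (10.1%), against 9.23% for others in the same windows, which was not called.

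Along 18S, the contacts of most of the guides were more frequent than those of other snoRNAs in the 50 nt to either side of the site, for 14 of 15 in ES-1 and 15 of 15 in ES-2. The exception was SNORD59 in ES-1, with 1 of 83 contacts there (1.20%, others 1.45%). The 15 C/D snoRNAs shown had a site on the 18S of chromosome 17 and were taken because that site had been called in ES merged, so their height near it is a description with no test. A mean of 13.0% and 10.6% of the 18S contacts fell in these 50-nt bins in ES-1, against 3.53% and 2.76% of the contacts of other snoRNAs. In ES-2 the means were 17.5% and 13.9%, against 2.50% and 2.18%. Each snoRNA had the same weight in these means. In ES-2, SNORD19 and SNORD68 had 3 contacts with 18S each, SNORD20 had 8 and SNORD14C 9. The 15 above others there include SNORD19 with 1 of 3 contacts and SNORD16A with 1 of 16. In the next bins outward the own share was 1.92% and 1.17% in ES-1, against 2.21% and 0.844% for others.

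**Figure D2:**
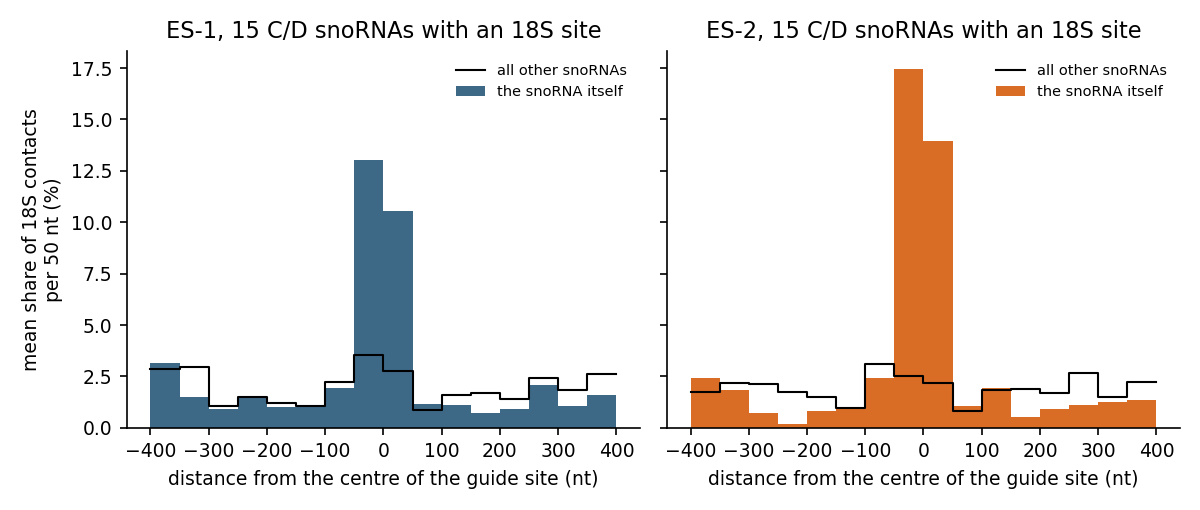
Distance of the 18S contacts from the centre of the guide site (x axis, nt, bins of 50 nt) for 15 C/D snoRNAs, as the mean share of their 18S contacts per bin (y axis, percent; bars) and the same for all other snoRNAs (line), in ES-1 (left) and ES-2 (right). The bars beside 0 reach 13.0% in ES-1 and 17.5% in ES-2, where the line lies at 3.53% and 2.50%. Each snoRNA has the same weight, and SNORD19 and SNORD68 have 3 contacts with 18S each in ES-2.

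U3, the SNORD14 copies and SNORD13 were described next along the unit of chromosome 17. U3, which pairs with the 5'ETS and with 18S and is needed for the early cuts of the precursor, was the snoRNA with most contacts in ES indirect. The 5'ETS took 127 of its 7462 ribosomal contacts in ES-1 (1.70%, all other RNAs 0.163%). In ES-2 it took 8 of 804 (0.995%, others 0.127%), in MEF 3 of 41 (7.32%, others 0.205%) and in ES indirect 1745 of 6623 (26.3%, others 6.83%). The share of U3 was thus above that of other RNAs in every library, with Fisher's exact test giving an adjusted p of 0.0130 in ES-2, 0.0228 in MEF and far lower values in the other libraries. The region tests were added after the files had been seen, and the genes they name were chosen by their calls. With every line counted, the odds ratio of U3 in ES indirect fell from 4.88 to 2.33, and it was 5.17 and 4.61 in its flow cells alone.

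Calls for the 5'ETS were rare. Of 241 snoRNAs tested in ES merged, 2 were higher than other RNAs, with 0.0808% of all 6190 RNAs tested called so, and 1 was lower (0.0162% of all RNAs), SNORA3 with 20 of 29985 contacts (0.067%). Besides U3, the higher one was SNORA64, a guide of 28S, with 40 of 11738 contacts (0.341%, others 0.157%), whose call was lost with every line counted (odds ratio 1.59, adjusted p = 0.0855 by Fisher's exact test). By library it was called higher in ES-2, with 14 of 1662 (0.842%), and not in ES-1. ES-1 thus had 1 of 238 snoRNAs higher, U3 (0.0867% of all RNAs), and 1 lower (0.0289%), and ES-2 had 2 of 222 higher (0.0932%) and 0 lower. In ES indirect 1 of 111 snoRNAs was called higher, U3, with 0.542% of all RNAs called, and 1 lower, with 0.711%. In MEF 1 of 79 was called higher, again U3, with 0.195% of all RNAs called. Besides U3, no snoRNA that acts in cutting the precursor was called for the 5'ETS in ES merged. SNORA73A had 29 of 28533 contacts there (0.102%) and SNORA73B 37 of 28029 (0.132%). SNORD118 had 7 of 4251 (0.165%) and U8 0 of 526, where other RNAs had 0.158%. SNORD22, also named for processing, had 10 of 6078 (0.165%) and was not called.

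Within the 5'ETS, the contacts of U3 in ES indirect fell in a few places. Positions were counted from the first base of 18S in bins of 100 nt, and U3 had 3590 contacts on the unit. The bin that starts at -3000 held 322 of them (8.97%, other snoRNAs 0.820%), and U3 gave 25.2% of all 1279 contacts that any RNA had there. The bin at -2500 held 276 (7.69%, others 1.67%) and the bin at -3400, the start of the annotated unit, 171 (4.76%, others 0.581%). The bins were chosen for their height, so these shares are a description with no test, and the same holds for those of SNORD14 and SNORD13 below.

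The copies of SNORD14 combined had 170 contacts on the unit in ES-1, against 62 and 496 in ES-2 and ES indirect. The bin from 400 to 499 of 18S, which holds the complement at bases 465 to 478, took 33 in ES-1 (19.4%, other snoRNAs 6.96%), while ES-2 had 27 there (43.5%, others 9.25%) and ES indirect 114 (23.0%, others 7.16%). It stood above the other snoRNAs in all 3 libraries.

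SNORD13, listed with 18S as its target, had contacts at the 3' end of 18S. It had 79 contacts on the unit in ES indirect. The bin from 1800 to 1899, which spans the 3' bound set for 18S at base 1849, held 24 of them (30.4%, other snoRNAs 1.46%). That bound is approximate, so contacts counted below as after 18S may include some in 18S. In ES-2 the bin held 14 of 268 (5.22%, others 0.116%), which were 14 of the 43 contacts of all snoRNAs there, and in ES-1 4 of 680 (0.588%, others 0.062%). Sequence after 18S took 18 of the 147 ribosomal contacts of SNORD13 in ES indirect (12.2%, all other RNAs 1.72%, odds ratio 8.17, adjusted p = 5.63e-08 by Fisher's exact test), and with every line counted the odds ratio was 16.7. It was the only snoRNA called for that region in ES indirect, of 111 tested, with 0.339% of all RNAs called, and 0 snoRNAs were lower (0.0678% of all RNAs), with 7 at an unadjusted p under 0.05 in either direction by the same exact test. In ES-1 and ES-2 the region took 2 of 3209 and 1 of 1446 contacts of SNORD13. No snoRNA was called higher or lower for it in ES merged, where 5 of 241 had an unadjusted p under 0.05 and 0.0% of all RNAs were called higher.

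**Figure D3:**
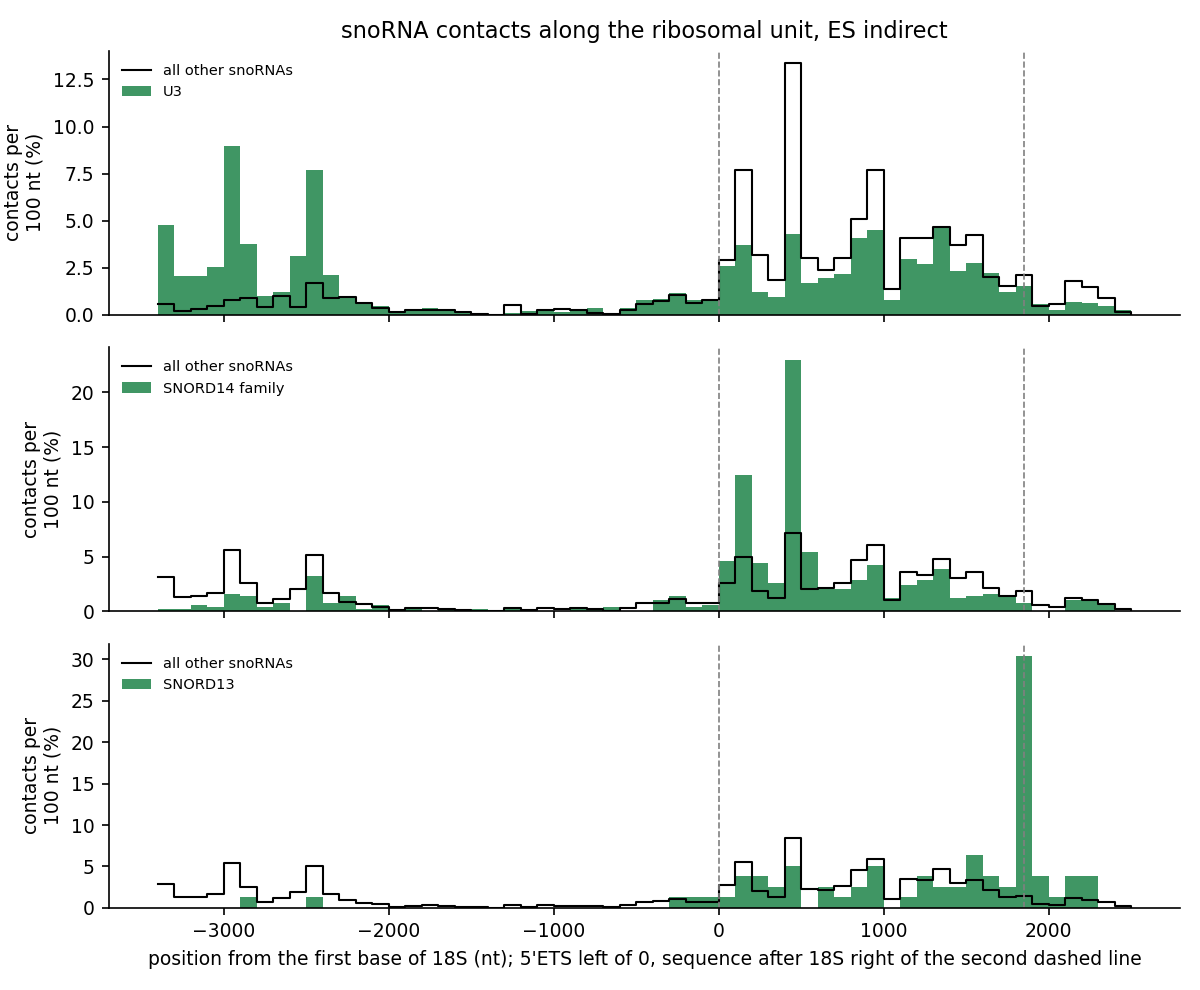
Contacts along the ribosomal unit of chromosome 17 in ES indirect (x axis, nt from the first base of 18S; dashed lines at both ends of 18S) as the share of each snoRNA's contacts per 100 nt (y axis, percent; bars), for U3 (top, 3590 contacts), the SNORD14 copies (middle, 496) and SNORD13 (bottom, 79), with all other snoRNAs as a line. U3 stands highest at -3000 (8.97%), SNORD14 at 400 to 499 (23.0%) and SNORD13 at 1800 to 1899 (30.4%).

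The next comparison asked how each snoRNA divided its contacts between the subunits. 18S is the RNA of the small subunit and 28S the main RNA of the large one. Of all snoRNA-ribosomal contacts, 18S took 29.3% and 28S 68.8% in ES-1, while ES-2 had 26.7% and 71.9%, ES indirect 37.6% and 43.3%, and MEF 12.4% and 84.1%. Of the 18S and 28S contacts alone, 18S took 29.9% for snoRNAs and 32.95% for other RNAs in ES-1, and 12.9% and 14.2% in MEF. In ES-2 the shares were 27.1% and 26.3%, and in ES indirect 46.5% and 44.2%, so snoRNAs as a whole lay below other RNAs in ES-1 and MEF and above them in ES-2 and ES indirect. These differences were not tested.

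For each RNA, the 18S share of its 18S and 28S contacts was set against that of all other RNAs with a two-sided Fisher's exact test. In ES merged 26 of 241 snoRNAs lay toward 18S, with 1.14% of all RNAs called so, and 43 toward 28S, with 1.52% of all RNAs called so. By library, ES-1 had 14 and 51 of 238 (2.29% and 1.82% of all RNAs), ES-2 20 and 19 of 219 (1.7% and 1.35%) and ES indirect 7 and 3 of 105 (2.58% and 1.16%). In MEF 0 of 76 were called either way, with 6 at an unadjusted p under 0.05 and 0.402% and 0.0% of all RNAs called. A snoRNA has more contacts than most other RNAs, and a deeper RNA is called at a smaller difference.

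Called the same way in ES-1 and ES-2 were 8 snoRNAs toward 18S (1.06% of all RNAs) and 16 toward 28S (0.709% of all RNAs), and 0 were called opposite ways. The 8 were SNORD14D, the processing snoRNAs SNORA73A and SNORA73B, the known 18S guides SNORA24, SNORA28 and SNORA44, SNORA64, which is a known guide of 28S, and SNORA72, which is a known guide of 5.8S. SNORD14D was called in all 3 ES cell libraries, with an 18S share of 43.5% in ES-1, and 44.3% and 66.8% in ES-2 and ES indirect. SNORA72 had 37.9% and 41.0% in ES-1 and ES-2, SNORA44 34.4% and 42.8%, and SNORA28 37.8% and 34.6%. SNORA73A had 32.4% and 29.0% and SNORA73B 33.2% and 30.3%, which lay nearer to the medians over all RNAs tested of 32.1% in ES-1 and 25.7% in ES-2. These medians give each RNA the same weight, while the test sets each RNA against the pooled contacts of the others.

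Toward 28S in both ES libraries lay AC087117, SNORA9, SNORA18, SNORA63, SNORA66, SNORA81, SNORD58, SNORD58B, SNORD60, SNORD74, SNORD75, SNORD79, SNORD88C, SNORD101, SNOZ40 and U8. SNORD88C, a guide of 28S, had the lowest odds ratio of these 16, with an 18S share of 14.8% in ES-1 and 13.9% in ES-2. SNORD58B had 20.6% and 15.7%, SNORD60 21.8% and 16.7%, and U8, which is needed for 28S to be made, 22.6% and 14.4%. The entry SNORD118 of the same snoRNA had 26.4% and 21.8%. SNORA66, a known guide of 18S, was called toward 28S with 26.9% and 19.6%. With the snoRNA as RNA2 alone in ES merged, SNORA44 kept its call toward 18S, and SNORA63, SNORA66, SNORD74 and SNORD79 kept theirs toward 28S. U8 had too few contacts there to be tested, the odds ratio turned for SNORA73A (0.929) and SNORD58B (1.02), and none of the rest was called. Among these, SNORD14D (1.97, adjusted p = 0.0602 by Fisher's exact test), SNORA64 (1.20) and SNORD88C (0.424) had odds ratios away from 1. So did SNOZ40 (0.645), SNORD101 (0.674), SNORD58 (0.723) and SNORD75 (0.773). SNORD60 (0.970), SNORA9 (0.993) and SNORA18 (0.994) lay close to 1. SNORA81 was called in each library, with 30.3% and 25.2%, but not in ES merged, where it had 29.1%.

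Against the known targets, the C/D guides of the subunits differed in their calls. In ES merged, 9 of 36 C/D guides of 18S lay toward 18S and 1 toward 28S, with a median 18S share of 32.5%, while 0 of 49 C/D guides of 28S lay toward 18S and 18 toward 28S, with a median of 25.3%. Over all RNAs tested the median was 28.9%, with 1.14% called toward 18S and 1.52% toward 28S. Among H/ACA guides, 5 of 15 guides of 18S lay toward 18S and 1 toward 28S (median 30.4%), and 2 of 12 guides of 28S lay toward 18S and 0 toward 28S (median 29.1%). The counts moved between the libraries. ES-1 had 4 of 35 C/D guides of 18S toward 18S and 18 of 49 C/D guides of 28S toward 28S, and ES-2 had 7 of 33 and 5 of 44, where 2.29% and 1.82% of all RNAs were called in ES-1 and 1.7% and 1.35% in ES-2. Of the 12 H/ACA guides of 28S, 4 lay toward 28S and 1 toward 18S in ES-1, and 1 and 2 in ES-2. Of 107 snoRNAs not in the list, 5 lay toward 18S and 20 toward 28S (median 28.2%). In ES indirect the 17 C/D guides of 18S had a median of 60.0%, with 5 toward 18S, and the 21 C/D guides of 28S a median of 30.4%, with 1 toward 28S, where all RNAs tested had 44.8%, with 2.58% called toward 18S and 1.16% toward 28S. The 9 H/ACA guides of 18S had a median of 42.3% there and the 11 of 28S 37.5%, and 0 of either were called. The site and subunit results use the same contacts, and the difference between H/ACA and C/D guides was not tested.

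The 18S guides called in ES indirect were the SNORD14 copies and SNORD16A. SNORD16A had an 18S share of 75.8%, SNORD14C 69.6%, SNORD14A 63.0% and SNORD14E 61.2%. SNORD83B followed with 57.9% and U3 with 48.8%. Toward 28S lay SNORD95 with 18.4%, SNORA63 with 27.3% and SNORA33 with 28.4%. SNORD16A was near the medians in ES-1 and ES-2, at 29.3% and 29.8%.

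**Figure D4:**
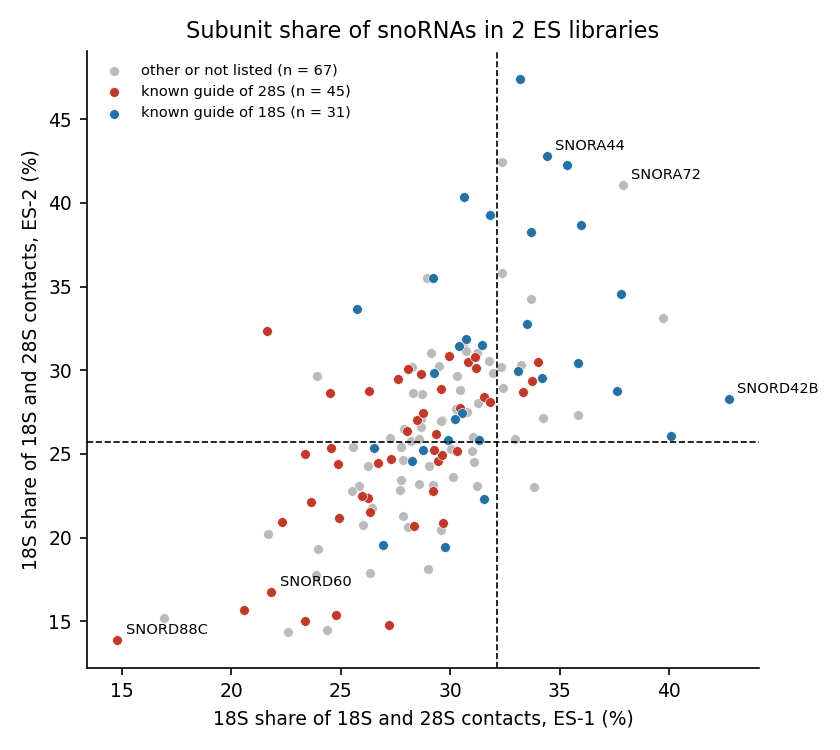
18S share of the 18S and 28S contacts of each snoRNA (percent) in ES-1 (x axis) and ES-2 (y axis), for snoRNAs with at least 100 such contacts in both: 31 known guides of 18S (blue), 45 known guides of 28S (red) and 67 others (grey), with the medians over all RNAs tested as dashed lines (32.1% and 25.7%). SNORD88C (14.8% and 13.9%) lies at the bottom left. SNORD14D (43.5% and 44.3%) is not shown, as it had 97 ribosomal contacts of any kind in ES-2.

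5S and 5.8S make most of the pairs of type rRNA in the ultraviolet libraries. 5S, which has genes of its own and joins the large subunit, took 1.11% of the ribosomal contacts of snoRNAs in ES-1, against 1.53% for other RNAs. ES-2 had 0.630% against 0.663%, ES indirect 1.00% against 0.789%, and MEF 2.41% against 2.13%. In ES merged 24 of 241 snoRNAs had a higher 5S share than other RNAs (2.29% of all RNAs) and 20 a lower one (0.937% of all RNAs). As with the subunit shares, a deeper RNA is called at a smaller difference. The calls rested on ES-1: 18 of 238 were higher there (3.04% of all RNAs) and 30 lower (1.3%), while ES-2 had 1 of 222 higher (0.373%) and 0 lower (0.0311%), with 19 at an unadjusted p under 0.05 in either direction by Fisher's exact test.

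The snoRNA called higher in ES-2 was SNORA9, an H/ACA snoRNA not in the target list. It had 282 of 8135 ribosomal contacts on 5S in ES-1 (3.47%, others 1.26%) and 38 of 1770 in ES-2 (2.15%, others 0.650%). SNORD83B had 122 of 2597 in ES merged (4.70%, others 1.05%), SNORD57 40 of 737 (5.43%) and SNORD52 99 of 3387 (2.92%). Low shares were found for SNORD58 with 8 of 3481 (0.230%), SNORD79 with 33 of 7908 (0.417%), SNORA73A with 156 of 28533 (0.547%) and SNORA33 with 144 of 25714 (0.560%).

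5.8S, which pairs with 28S in the ribosome, took 0.191% of the ribosomal contacts of snoRNAs in ES-1 and 0.213% in ES-2. SNORA29 and SNORA62 had a higher share in ES merged, 2 of 241 snoRNAs (0.0323% of all RNAs), with 33 of 4193 (0.787%, others 0.193%) and 41 of 8105 (0.506%). Neither is in the target list, and none of the 3 listed guides of 5.8S tested was called for it. Both were called in ES-1, of 238 tested (0.0578% of all RNAs), which held 29 of the 33 and 32 of the 41 contacts. In ES-2 0 of 222 were called (0.0% of all RNAs), with 10 at an unadjusted p under 0.05. The odds ratios in ES-2, which rest on the few remaining contacts and were not called, were 4.03 for SNORA29 and 4.41 for SNORA62. In ES merged they were 4.16 and 2.66.

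The classes were compared by their ribosomal share. This is the share of distinct pairs with ribosomal RNA among all pairs that join the snoRNA to another annotated RNA. Classes follow the symbol prefix, so C/D here holds SNORD symbols only. U3 and U8 were counted as other symbols, although SNORD118 is an entry of U8. C/D snoRNAs had 73.1% in ES-1 (95% Wilson interval 72.9 to 73.3) and H/ACA snoRNAs 71.0% (70.9 to 71.2), a difference of 2.06 percentage points (two-sided Fisher's exact test, adjusted p = 1.00e-57). In ES-2 C/D had 63.6% (63.2 to 64.1) and H/ACA 64.2% (64.0 to 64.5), a difference of -0.600 points (adjusted p = 0.0196 by the same exact test). The merged difference was 1.23 points. The negative sign of ES-2 did not hold for fragments of at least 20 nt (0.279 points) or sequences at the stated position (0.322), and its call was lost with every line counted (-0.372), without the snoRNA of most contacts in each class (-0.271) and in each flow cell. In ES indirect C/D had 57.1% (56.0 to 58.2) and H/ACA 49.7% (48.5 to 50.9), a difference of 7.38 points (adjusted p = 7.02e-18 by the same exact test). In MEF C/D had 31.2% (28.9 to 33.5) and H/ACA 38.0% (37.4 to 38.5), a difference of -6.81 points (adjusted p = 9.49e-08 by the same exact test), and -7.01 points in the first flow cell alone, with 33.0% and 39.99%. The MEF call was lost with the snoRNA as RNA1 (-2.45 points, adjusted p = 0.248 by the exact test), for fragments of at least 20 nt (-3.23, adjusted p = 0.105 by the exact test) and for sequences at the stated position (-1.86, adjusted p = 0.299 by the exact test). That of ES indirect was lost with the snoRNA as RNA1 (2.55 points, adjusted p = 0.0815 by the exact test). In ES-2 the difference was 2.31 points where the snoRNA was RNA1 and 2.09 where it was RNA2, so its sign turned when both ends were pooled. A class is a set of genes in 1 library, so these p-values cover counting error only.

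SCARNA genes had lower shares than both classes in the 3 ES cell libraries, with 67.5%, 59.4% and 44.3% for ES-1, ES-2 and ES indirect, and had 36.9% in MEF (39.1% in its first flow cell). The other symbols had 71.8%, 65.7%, 64.1% and 36.3% (38.8% in the first flow cell of MEF), with U3 alone giving 6623 of their 7012 ribosomal contacts in ES indirect. Over all RNAs ES-1 had a ribosomal share of 68.3%, ES-2 65.8%, ES indirect 43.6% and MEF 32.4%. By the type rRNA alone, C/D had 1.33% and H/ACA 1.15% in ES-1, and 22.7% and 18.1% in ES indirect. The shares were 0.856% and 0.804% in ES-2 (adjusted p = 0.356 by Fisher's exact test), and 0.934% and 1.19% in both flow cells of MEF (adjusted p = 0.461 by Fisher's exact test).

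**Figure D5:**
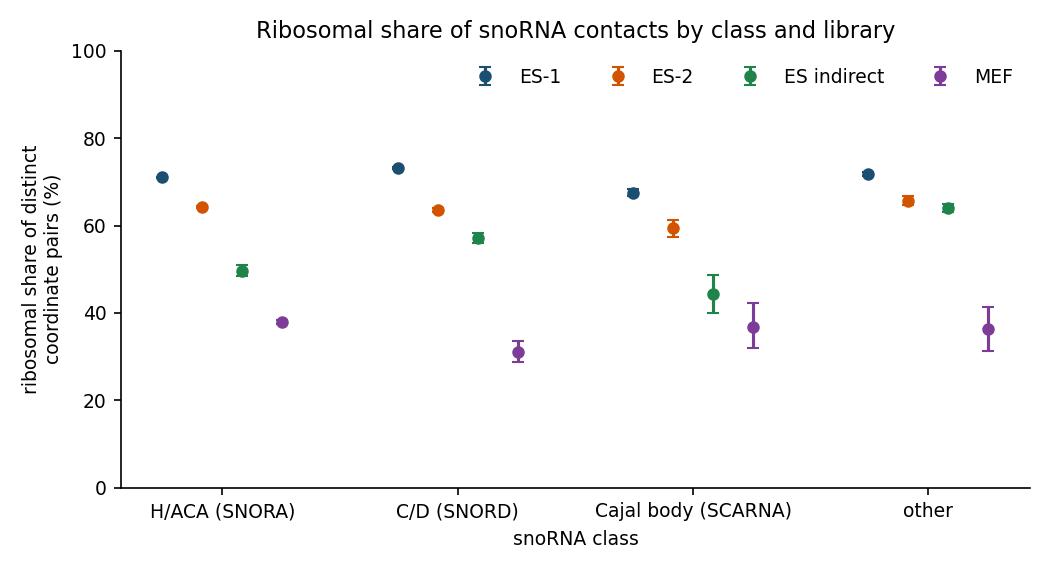
Ribosomal share of the distinct coordinate pairs of each snoRNA class (y axis, percent, from 0) in the 4 libraries (colours), with 95% Wilson intervals as bars; the MEF points hold both flow cells. C/D lies above H/ACA in ES-1 (73.1% and 71.0%) and ES indirect (57.1% and 49.7%), and below it in ES-2 (63.6% and 64.2%) and MEF (31.2% and 38.0%).

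By number, H/ACA snoRNAs gave most of the contacts in ES-1, ES-2 and MEF. In ES indirect they gave 3172 of 14667, fewer than the 4261 of SNORD symbols and the 7012 of other symbols. U3, counted among the latter, gave 6623. SNORA81, a guide of 28S, had 51712 ribosomal contacts in ES-1 and 15178 in ES-2, with 160 and 1185 in ES indirect and MEF. SNORA63 had 29581, 6535, 160 and 802 in the same order. SNORA3, SNORA73A and SNORA73B followed in ES-1 with 24238, 23657 and 23118. The C/D snoRNAs with most contacts were SNORD79, with 6882 in ES-1 and 1026 in ES-2, alongside SNORD74, with 6625 and 2118, both known guides of 28S. SCARNA6 led the Cajal body RNAs with 2533 and 321. SNORA81 and the other H/ACA snoRNAs named here had more contacts in MEF than in ES indirect, and U3 had fewer.

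For each snoRNA the ribosomal share was set against that of all other RNAs. In ES merged 85 of 241 snoRNAs had a higher share, with 5.61% of all 8535 RNAs tested called higher, and 43 a lower one, with 11.1% called lower. The snoRNAs held 1082107 of the 2321730 pairs counted over all RNAs, and a deeper RNA is called at a smaller difference. These shares of calls are therefore not like for like. The higher calls were 45 of 117 C/D, 31 of 78 H/ACA, 1 of 18 SCARNA and 8 of 28 other snoRNAs. The median share of the snoRNAs was 68.9%, and that of all RNAs tested 64.3%. In ES-1 the medians were 70.9% and 63.3%, and in ES-2 they lay the other way, at 63.0% and 66.7%. In ES merged 11 were higher and 20 lower with the snoRNA as RNA2 alone, and by the type rRNA alone 18 and 16. The shares of all RNAs called under these settings are not given here. The calls differed between the assays: ES-1 had 93 higher and 32 lower of 241 (4.68% and 14.5% of all RNAs), and ES-2 had 22 and 62 of 230 (9.24% and 7.6%). Called the same way in both were 22 higher (2.33% of all RNAs) and 21 lower (5.34%), while 15 were called opposite ways, all of them higher in ES-1. The share of all RNAs called opposite ways was not counted, here or for the subunits, so the 15 cannot be read as particular to snoRNAs.

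SNORD88C had the highest odds ratio among those called higher in both, with shares of 85.3% in ES-1 and 79.1% in ES-2. SNORD1A followed with 84.0% and 74.3%, SNORD58 with 80.8% and 74.9%, SNORD79 with 79.0% and 70.9%, and SNORD2 with 77.99% and 77.4%. SNORD58, SNORD79, SNORD88C and SNORD2 are known guides of 28S. With the snoRNA as RNA2 alone in ES merged, the odds ratio of SNORD88C turned to 0.992, and SNORD1A (1.71), SNORD58 (1.25), SNORD79 (1.15) and SNORD2 (1.02) were not called. The lowest were SNORD44, listed as a guide of 18S, with 47.7% and 33.5%, AF357425 with 51.7% and 45 of 90 pairs, and SNOU90 with 52.2% and 45.0%. Next came SNORD23, without a ribosomal target in the list, with 57.4% and 45.9%, and SNORD67, which guides U6 spliceosomal RNA, with 56.3% and 51.8%. As RNA2 alone AF357425 had an odds ratio of 1.00, and SNORD23 (0.728) and SNORD67 (0.846) were not called. As RNA1 alone SNORD44 (0.962) and AF357425 (0.851) were not called, against odds ratios of 0.328 and 0.511 with both ends. SNORD83B, SNORD14E and SNORD11, all with a site in 18S, were also called lower in both.

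In ES indirect 36 of 165 snoRNAs had a higher ribosomal share (9.44% of all RNAs) and 0 a lower one, with 63 at an unadjusted p under 0.05 in either direction and 11.1% of all RNAs called lower. Of 77 C/D snoRNAs 26 were higher, and of 65 H/ACA snoRNAs 8. SNORD13 had 70.3% there, with 73.7% and 69.4% in the ultraviolet ES libraries. It was called higher in all 3 ES cell libraries, as were SNORD1A, SNORD2, SNORA52 and SNORA67. SNORD83B and SNORD14E, lower in ES-1 and ES-2, were called higher in ES indirect with 53.0% and 58.1%, where all RNAs had 43.6%. In MEF 28 of 104 were higher (10.6% of all RNAs) and 5 lower (25.0%) over both flow cells. In its first flow cell alone 1 of 100 was higher (15.6% of all RNAs) and 39 were lower (23.2%), so the direction of the MEF calls rests on the second flow cell.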

How the data were processed

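Each deposited file was made by the authors for 1 library and holds 1 read pair per line, with the position, strand, sequence, type, name and region of RNA1 and RNA2. It holds no measured value, so every count used here is a count of the authors' deposited lines. According to the submitters' processing notes, TopHat2 2.1.1 and the mm9 assembly (NCBIM37) were used. By the methods of the study, duplicates were removed and fragments with a unique place in the genome were kept. Lines identical in the coordinates of RNA1 and RNA2 were counted as 1 (distinct pairs), since molecular identifiers are not in the lines. The libraries held 474526 (MEF), 1312314 (ES-2), 3230403 (ES-1) and 3302146 (ES indirect) lines. Intervals and limits cover counting error only. ES has 2 libraries, ES indirect and MEF 1 each, so groups were not tested against each other.

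Each RNA with at least 20 pairs (20 subunit or ribosomal contacts, 5 placed contacts for guide sites) was tested against all others by Fisher's exact test, adjusted by Benjamini-Hochberg over all RNAs tested and called at an adjusted p under 0.05. Guide sites were perfect complements of at least 10 nt, found in NCBIM37, which holds no whole 28S. Python 3.11.15, pandas 2.3.3, numpy 2.4.6, scipy 1.17.1 and pysam 0.24.0 were used. The tests were also run on simulated counts and shuffled positions, with read pairs taken as independent. Such data cannot show whether read pairs are a sound unit. Named snoRNAs were, in each class, the 8 with most contacts, the 5 highest and 5 lowest called odds ratios, the 5 most uneven subunit shares, every snoRNA called for its guide site, and the processing snoRNAs. Members and lists were chosen with earlier results of these data known. The region tests, the type rRNA alone, gene identifiers and the first flow cell of MEF were added after the data were seen, and snoRNAs outside the rule were named after their values were seen. A sequence on chromosome 18 is not reported here.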

Additional observations from a re-analysis of the deposited data

Results flagged for a closer look

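The difference in ribosomal share between C/D and H/ACA snoRNAs pointed one way in ES indirect and the other way in MEF: it was 7.38 percentage points in ES indirect and -6.81 in MEF (-7.01 in the first flow cell of MEF alone). Neither was called with the snoRNA as RNA1 (2.55 and -2.45), and MEF was not called for fragments of at least 20 nt (-3.23) or sequences at the stated position (-1.86) either. The difference between these groups was not tested, since each is 1 library, and crosslinking, fragment size, depletion, strain and cell type cannot be told apart.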

How the results depend on the processing

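In ES merged, the counts for ribosomal share, subunit share and guide sites kept within 1.5 times for fragments of at least 20 nt and sequences found at the stated position, as did the first 2 under other minimum numbers of pairs and that for guide sites under other windows. The region counts were recomputed only with every line counted and without each ES library. Without each ES library in turn the counts ran from 22 to 93 for a higher ribosomal share (85 in ES merged), 32 to 62 for a lower one (43), 14 to 20 toward 18S (26), 19 to 51 toward 28S (43), 41 to 41 for guide sites (50), 1 to 2 for the 5'ETS (2), 0 to 2 for 5.8S (2), 1 to 18 for 5S (24) and 0 to 0 after 18S (0), and the difference between C/D and H/ACA from -0.600 to 2.06 points (1.23).

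With the snoRNA as RNA1 alone, 45 had a higher and 12 a lower ribosomal share. As RNA2 alone, 11 were higher and 20 lower, 5 lay toward 18S, 12 toward 28S and 27 were called for their site. There the odds ratio turned for AF357425 (1.00) and SNORD88C (0.992) in ribosomal share and for SNORA73A (0.929) and SNORD58B (1.02) in subunit share, and the ratio at the site was 0.0 for SNORD19, SNORD1A, SNORD30 and SNORD88C and 0.324 for SNORD34. In the first flow cells alone 24 lay toward 28S. In the second alone 26 had a lower share, 13 lay toward 18S and SNORD71 had a ratio of 0.0. With every line counted 48 lay toward 18S, and 8, 10 and 7 were higher for the 5'ETS, 5.8S and after 18S. With a complement of at least 12 nt, which leaves fewer snoRNAs to test, 29 were called. By the type rRNA alone 18 were higher and 16 lower. By gene identifiers 141 were higher and 65 lower, but these count genes and cannot be set beside counts of symbols. The counts up to here are given without the number tested and the share of all RNAs called. They therefore show only how the number of calls moved. In the first flow cell of MEF 1 was higher and 39 lower, against 28 and 5.

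The difference between C/D and H/ACA in ES-2 (-0.600) turned to 2.31 with the snoRNA as RNA1, 2.09 as RNA2, 0.279 for fragments of at least 20 nt, 0.322 for sequences at the stated position and 0.0522 by type rRNA. It missed the threshold at -0.372 with every line counted, -0.271 without the snoRNA of most contacts in each class, and -0.541 and -0.687 in the flow cells. The difference also missed the threshold in ES indirect at 2.55 as RNA1. In MEF it missed the threshold at -2.45 as RNA1, -3.23 for fragments of at least 20 nt, -1.86 at the stated position and -0.253 by type rRNA. The second flow cell of MEF held no ribosomal contact of a snoRNA, so its difference of 0.0 was fixed and tests nothing. The causes were not tested. No paired analysis was possible because ES indirect and MEF have 1 library each, so that any groups compared share fewer than 2 replicate numbers. In MEF 23 snoRNAs had the 5 placed contacts needed for the site test, against 98 in ES merged. MEF held 474526 lines and 1499 pairs of C/D snoRNAs, against 1312314 and 44853 in ES-2. The cause of the low number was not tested.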

Other observations

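SNORD11, SNORD105 and SNORD81 were called for their guide site in ES indirect without a call in each of the 2 ultraviolet libraries. SNORD11, a guide of 18S, had 11 of 23 contacts near its site in ES indirect (47.8%, others 7.68%), 11 of 159 in ES-1 and 4 of 51 in ES-2. SNORD105, also a guide of 18S, had 3 of 9 in ES indirect (33.3%, others 4.66%) and 0 of 37 in ES merged. SNORD81, a guide of 28S, had 6 of 11 in ES indirect (54.5%, others 1.36%), 81 of 1419 in ES-1 (5.71%, called) and 8 of 255 in ES-2 (3.14%, not called). SNORD99 had 3 of 25 in ES indirect (12%, called), 10 of 127 in ES-2 (7.87%, called) and 5 of 333 in ES-1 (not called). The 24 contacts near the site of SNORD88C in ES merged had 0.0% overlap with the complement itself, although the snoRNA was called in both ES libraries. The differences between libraries were not tested.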
